A study of Gorilla gorilla gorilla with 14 samples.

Results

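Gorilla chromatin regions that lack a listed position in the human or the chimpanzee genome were followed through 4 cell types of the developing cortex. They are the rows of the deposited count table that carry a gorilla position (build gorGor6) and no position in the human genome (hg38) or in the chimpanzee genome (panTro6). Of 204249 regions with a gorilla position, 5317 met this rule, which is 2.60%. They form 3 classes that do not overlap. In 1776 regions neither a human nor a chimpanzee position was listed (neither-position regions), 1071 had a chimpanzee but no human position (regions without a human position only), and 2470 had a human but no chimpanzee position (regions without a chimpanzee position only). In all, 2847 regions had no human position and 4246 had no chimpanzee position. The membership used no accessibility value.

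The assay was ATAC-seq on bulk sorted cells: a transposase inserts sequencing adapters where DNA is accessible, and a region's read count rises with its openness. Gorilla cerebral organoids of the iPSC line GC1 supplied the cells at week 8, and the labels name no treatment or edit. The groups were BCL11B+ neurons (N, n = 4), basal intermediate progenitors (bIP, n = 5), basal radial glia (bRG, n = 2) and apical radial glia (aRG, n = 3). Apical radial glia are the stem cells along the ventricle, basal radial glia have left it, and intermediate progenitors are committed to making neurons. All samples come from 1 line, and no label assigns libraries of a group to different organoid cultures, so the spread between libraries, and every p-value resting on it, may be technical.

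A position in a second species is found by aligning the genomes. A region can be without one because its sequence was gained or lost on a lineage, because it sits in duplicated sequence that cannot be placed at a single spot, or because the other assembly has a gap or a rearrangement there. Recent segmental duplications of the great apes are rich in such sequence, and some hold genes that act in the cortex. Why a given region had no listed position is not given in the sources used here.

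Library totals over the 204249 regions ran from 12834983 to 26660427 counts. The library numbers form 2 consecutive series: N replicates 1 and 2, bIP replicates 1 to 3 and aRG replicates 1 and 2 belong to the first, and the remaining libraries, among them both bRG libraries, to the second. Levels are TMM-scaled CPM. Marker promoters were compared with the labels. At SOX2, a neural stem cell factor, the mean was 9.6 CPM in N, 32.9 CPM in bIP, 49.0 CPM in bRG and 59.3 CPM in aRG. EOMES, which marks intermediate progenitors, stood at 36.5, 83.0, 45.8 and 31.5 CPM in the same order, and MYT1L, a neuronal factor, at 43.3, 45.7, 5.90 and 6.73 CPM. The promoter of BCL11B, for which the neurons are labelled, differed less, at 20.3 CPM in N, 23.6 CPM in bIP, 14.2 CPM in bRG and 19.7 CPM in aRG. Promoters of pluripotency genes summed to 16.0, 23.7, 28.5 and 29.7 CPM in N, bIP, bRG and aRG (3 of 8 genes have a promoter region), those of mesenchyme to 44.5, 50.9, 77.3 and 78.2 CPM (7 of 9 genes) and those of choroid plexus and hem to 34.6, 30.9, 48.0 and 44.5 CPM (5 of 8 genes). Their part in the results below was not tested.

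The regions were spread over every chromosome in the table, but unevenly. On chromosome X they made up 132 of 137 regions, 96.4%: 72 neither-position regions, 59 without a human position only and 1 without a chimpanzee position only. No region of the whole table has a human position on X or Y, so the missing human positions there concern the entire chromosome, whereas chimpanzee positions on X do occur, 187 in the table. The deposited peak sets list from 4544 (N) to 5839 (bRG) peaks on X, repeated entries included, against the 137 regions here. The share of 96.4% thus describes how the table is composed. Off X, the share was highest on chromosomes 16 (5.30%), 22 (4.22%), 19 (3.75%) and 21 (3.56%), and lowest on 3 (1.46%), 2B (1.53%) and 18 (1.64%). Neither-position regions were few on chromosomes 2A and 2B, 8 of 7923 and 10 of 9441 regions (0.101% and 0.106%), against 2.32% on chromosome 16 and 1.83% on 22. None of the deposited peak sets holds a peak on 2A or 2B.

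Many of the regions lay side by side. Consecutive regions without a human position were joined into runs, and the runs numbered 1830, of which 1458 were single regions and 86 held 5 or more regions, together 690 regions. The longest run was the 120 regions on X, and the longest elsewhere had 18. For the chimpanzee there were 2282 runs, 1632 of them single regions, and 185 of 5 or more with 1438 regions in them. The longest had 27 regions.

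The nearest regions on both sides of a run that do have a position in the other genome were used to measure the same interval there. An interval was called shorter or longer in the other genome when it differed by more than 50% of the summed width of the run's regions. In the human genome the interval was shorter for 1166 of 2847 regions (41.0%), in 749 runs with a median difference of 3467 bp. It was of like length for 686 (24.1%), longer for 494 (17.4%), longer by over 1 Mb for 218 (7.66%) and split over 2 chromosomes for 84 (2.95%), and 199 regions (6.99%), the run on X included, had no flank on one side. In the chimpanzee genome it was shorter for 1335 of 4246 regions (31.4%, median difference 4792 bp), of like length for 1149 (27.1%), longer for 1119 (26.4%), longer by over 1 Mb for 395 (9.30%) and split over 2 chromosomes for 153 (3.6%). With both kinds of longer interval counted together, 712 regions (25.01%) had a longer interval in human and 1514 (35.7%) in the chimpanzee. Regions with a shorter interval thus outnumbered those with a longer one in human and not in the chimpanzee. These counts weight a run by its regions. Counted as runs, 745 intervals were shorter in the chimpanzee, 632 longer and 109 longer by over 1 Mb. In human these were 749, 368 and 94 runs.

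**Figure D1:**
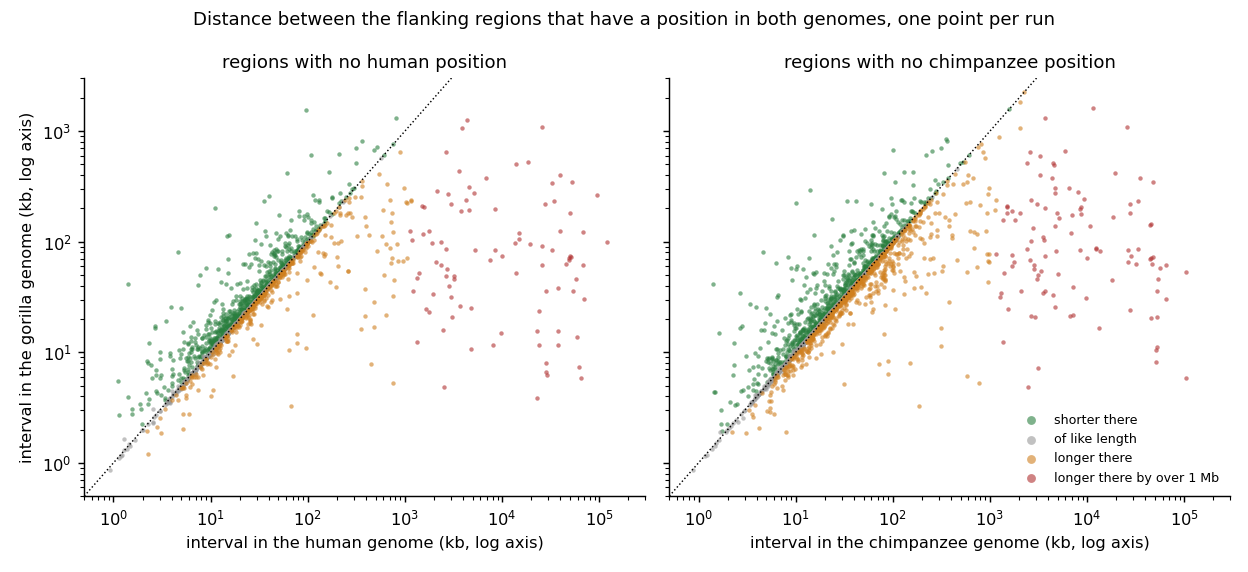
Length of the interval between flanking regions in the gorilla genome (y axis, kb, log axis) against the same interval in the human (left) and chimpanzee genome (right; x axes, kb, log axes), 1 point per run, coloured by whether the interval is shorter, of like length, longer or longer by over 1 Mb there, with a dotted line of equality. Green points above the line are runs whose interval is shorter in the other genome, which held for 41.0% of regions without a human position and 31.4% of those without a chimpanzee position.

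For the chimpanzee, the largest run was on chromosome 5, where gorillas carry a translocation between the counterparts of human chromosomes 5 and 17. Its 27 regions (57478388 to 57847286) sit between PRPSAP2 and DRG2, on human chromosome 17, and span a gorilla interval of 397 kb whose flanks are 3259 kb apart in the chimpanzee genome. Runs of 23 and 22 regions on chromosome 1 (115248744 to 115721947 and 115753348 to 115883525) had flanks 2392 kb and 10817 kb apart in the chimpanzee, against 518 kb and 139 kb in gorilla. The first of these holds the region listed with NOTCH2NLA.

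The regions had ordinary widths, with a median of 830 bp for neither-position regions, 810 bp without a human position only, 872.5 bp without a chimpanzee position only and 859 bp for regions with both positions. Where a position in the remaining species existed, its width was compared with that in gorilla. The human counterpart of 278 of the 2470 regions without a chimpanzee position differed in width by more than 10% (11.3%), against 2355 of 198932 regions with both positions (1.18%), and 227 of the 278 were narrower in human. The chimpanzee counterpart of 65 of the 1071 regions without a human position differed by as much (6.07%), against 1.08% of regions with both. Positions on a human chromosome other than the gorilla one, with chromosomes 5 and 17 taken as matching, made up 1.66% of regions without a chimpanzee position and 0.0518% of regions with both.

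The deposited consensus peaks, 1 set per cell type, were compared with the regions off 2A and 2B. A region was counted as touched when at least 1 bp overlapped a peak. How rows entered the table is not given in the sources used here. Neither-position regions were rare on 2A and 2B, where no peak is listed, and 67312 of 181885 regions with both positions (37.0%) touched no gorilla peak, so the shares below describe how the table is composed. Of 1758 neither-position regions, 98.0% were touched in at least 1 set and 28.0% in all 4 sets. The shares were 70.0% and 15.3% of 998 regions without a human position only, 64.9% and 19.7% of 2244 without a chimpanzee position only, and 63.0% and 16.8% of 181885 regions with both positions. In the aRG set alone, 59.4% of neither-position regions were touched (95% Wilson interval 57.1 to 61.7), against 36.5% of regions with both (36.3 to 36.7), and in the bIP set 53.3% (51.0 to 55.6) against 35.8% (35.6 to 36). These intervals cover counting error only. Regions touched in the N set and in no other were the most frequent cell-type-specific kind in every class, at 16.8% of neither-position regions, 12.7% without a human position only, 10.8% without a chimpanzee position only and 10.7% with both.

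Levels per length were compared over all regions and over those that touch a peak. Over all neither-position regions the median level was 3.67 ± 0.294 CPM per kb in N, 3.54 ± 0.0431 in bIP, 3.55 ± 0.0523 in bRG and 3.88 ± 0.294 in aRG, against 2.39 ± 0.146, 2.10 ± 0.119, 1.92 ± 0.0135 and 1.85 ± 0.0629 CPM per kb in regions with both positions (SD over libraries of the library medians). The ratio was above 1 in 14 of 14 libraries, from 1.31 to 2.28. Among regions that touch a peak in at least 1 set, a restriction chosen after seeing the data, the 1722 neither-position regions stood at 3.73 ± 0.322 CPM per kb in N, 3.63 ± 0.0561 in bIP, 3.62 ± 0.0307 in bRG and 3.95 ± 0.277 in aRG, against 3.59 ± 0.240, 3.41 ± 0.141, 3.32 ± 0.0288 and 3.35 ± 0.0465 CPM per kb in 114573 regions with both positions. The ratio then ran from 0.972 to 1.23 and was above 1 in 13 of 14 libraries, so most of the difference over all regions was absent among regions that touch a peak. Over all regions, those without a human position only were above regions with both in 8 of 14 libraries (ratio 0.820 to 1.23), and those without a chimpanzee position only in 9 of 14 (0.959 to 1.11). In bulk samples, fewer cells that open a region and less opening per cell cannot be told apart.

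Taken as shares of a library's counts, the 5317 regions held 3.25% ± 0.258 in N, 3.37% ± 0.306 in bIP, 3.04% ± 0.0389 in bRG and 3.36% ± 0.0897 in aRG. Neither-position regions held 1.47% ± 0.195, 1.60% ± 0.299, 1.26% ± 0.0284 and 1.55% ± 0.0776 in the same order. Within bIP, replicate 3 stood at 2.13% and the other libraries between 1.40% and 1.54%. Regions without a human position only held 0.427% ± 0.00992 in N, 0.421% ± 0.0115 in bIP, 0.419% ± 0.00454 in bRG and 0.418% ± 0.00535 in aRG. Regions without a chimpanzee position only held 1.36% ± 0.0594 in N, 1.35% ± 0.0101 in bIP, 1.37% ± 0.00597 in bRG and 1.39% ± 0.0111 in aRG. None of the 16 differences between cell types passed a two-sided exact permutation test over libraries after adjustment (adjusted p from 0.457 to 0.889). The smallest p this test allows is 0.0159 for N against bIP, 0.0952 for bIP against bRG, 0.0357 for bIP against aRG and 0.2 for bRG against aRG, so bRG against aRG and bIP against bRG could not reach 0.05.

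**Figure D2:**
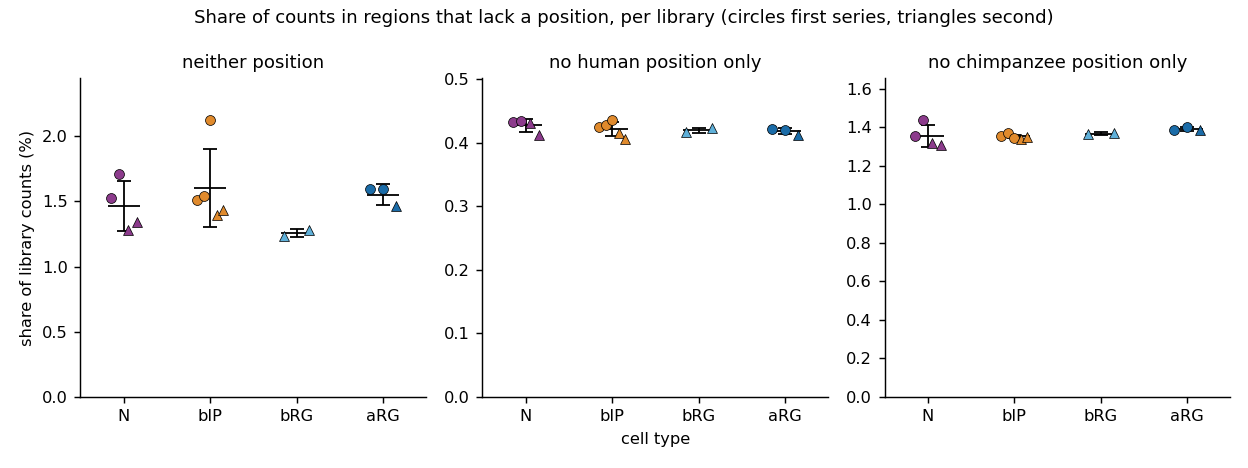
Share of each library's counts (y axis, %) in the 3 classes of regions by cell type, with 1 point per library, circles for the first and triangles for the second library series, and bars for the mean and SD. The bIP library at 2.13% stands above the other bIP libraries among neither-position regions, and the bRG libraries lie lowest there, at 1.24% and 1.28%, with the lowest N library also at 1.28%.

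The mean log2 CPM of a class minus that of the regions with both positions weights each region equally. For neither-position regions this offset was 0.37 ± 0.13 in N and 0.54 ± 0.037 in bIP, a difference of −0.17 (exact permutation p = 0.0317, adjusted p = 0.254). It was 0.54 ± 0.037 in bIP and 0.67 ± 0.037 in aRG, a difference of −0.13 (exact permutation p = 0.0357, adjusted p = 0.254). For regions without a human position only, it was −0.22 ± 0.072 in N and −0.13 ± 0.040 in bIP, a difference of −0.091 (exact permutation p = 0.0476, adjusted p = 0.254). Within the library series the first of these was 0.47 against 0.52 in the first and 0.27 against 0.56 in the second, N against bIP. None passed after adjustment over the 16 tests. Off 2A and 2B, 37.0% of regions with both positions touched no deposited gorilla peak, against 2.05% of neither-position regions. Among regions that touch a peak, the median N against bIP log2 difference was −0.18 for neither-position regions and −0.17 for those with both. The offset was not tested among touched regions alone.

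A few regions carried much of the signal. The 10 most counted neither-position regions held 25.6% of the CPM of their class, against 12.2% and 7.21% for the top 10 of regions without a human and without a chimpanzee position only. The most counted of all, chr3:78734681-78737112, stood at 2053, 2500.3, 873 and 1506 CPM in N replicates 1 to 4, at 1888, 1991, 4768, 1424 and 1638 CPM in bIP replicates 1 to 5, at 215 and 429.9 CPM in the bRG libraries, and at 2175, 2220.1 and 1477 CPM in the aRG libraries. Both bRG libraries were thus below every other library and bIP replicate 3 above all. The region lies on gorilla chromosome 3 with its neighbour chr3:78740748-78742692 in an interval of 27.6 kb that measures 16.8 kb in both human and chimpanzee, and the nearest region with a human position is listed with AC055731.1.

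A further 9 regions followed this one over the 14 libraries with a Pearson correlation of at least 0.95 between levels on a log2 scale (CPM plus 0.5), from 0.958 to 0.999. The correlation is a description, since within a library all regions are read from the same cells at the same depth. The set was chosen after its values were seen. All 10 are neither-position regions, on 4 chromosomes: chr3:78734681-78737112 and chr3:78740748-78742692, chr9:74881480-74883297, chr9:74885103-74885341 and chr9:27205440-27206432, chr1:115254539-115255196, and 4 on chromosome 5, chr5:123067309-123067657, chr5:123067811-123068134, chr5:123068341-123068691 and chr5:123068924-123069422. Their levels differed widely, and for the most counted ones the proportions were steady. The second region on chromosome 3 was 0.458 ± 0.0148 of the first (mean and SD of the ratio over 14 libraries), chr9:74881480-74883297 was 0.213 ± 0.0156 of it, and chr9:27205440-27206432 was 0.10 ± 0.0044 of it. Each was lowest in bRG replicate 1 and highest in bIP replicate 3, by 22.2-fold to 43.9-fold. Together they took 0.191% to 0.475% of the library in N, 0.237% to 0.982% in bIP, 0.0384% and 0.0790% in bRG, and 0.256% to 0.385% in aRG. The highest correlation of a region with both positions with the first region was 0.909. Their levels moved with single libraries within a group, and the part of those libraries in the differences between cell types was not tested.

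**Figure D3:**
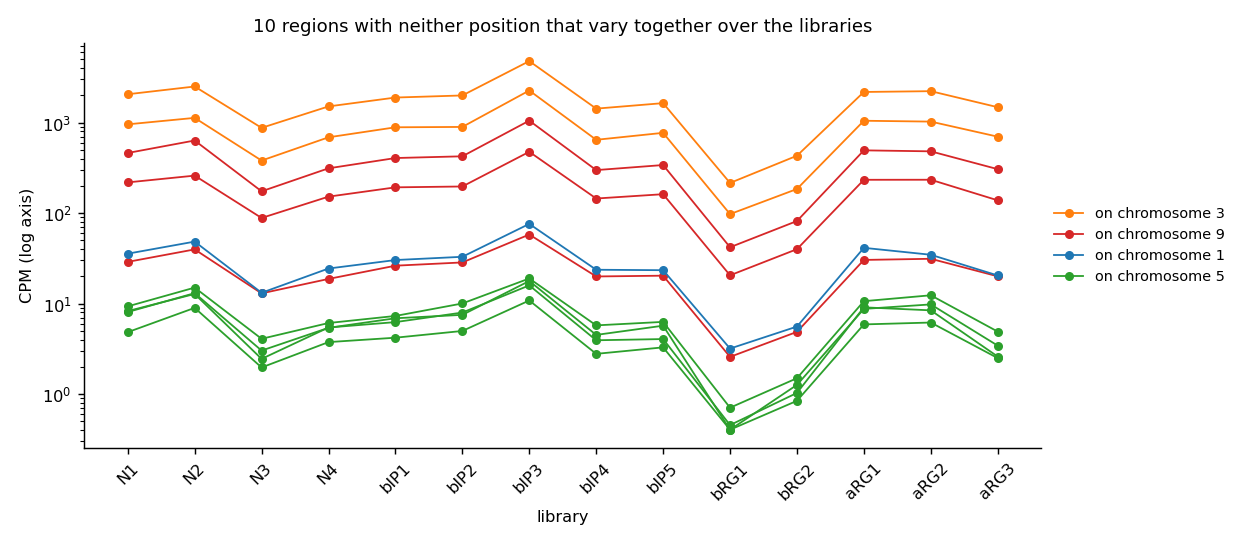
CPM (y axis, log axis) of the most counted region and the 9 that follow it, in each of the 14 libraries (x axis), with points joined per region and colours by chromosome. The lines run close to parallel, with a low in bRG replicate 1 and a high in bIP replicate 3.

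Differences between cell types were tested with edgeR's quasi-likelihood test on the counts of all 200931 regions that passed a filter on low counts, with a term for the library series. A region was called at a Benjamini-Hochberg adjusted p under 0.05 over all these regions. Of the 5317 regions 5212 passed the filter: 1774 neither-position regions, 1038 without a human position only and 2400 without a chimpanzee position only. Log2 differences come from this model with their standard errors.

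Basal were set against apical radial glia, the stem cells they descend from. No region was called, 0 of 5212 (all regions 0.0%). An unadjusted edgeR p under 0.05 was found for 239 of the 5212, beside 8197 of all 200931 regions. DESeq2 called 7, all lower in bRG. The smallest adjusted p of the whole table belonged to a neither-position region, chr9:74885103-74885341, with 2.58 and 4.87 CPM in the bRG libraries and 30.4, 31.3 and 20.004 CPM in the aRG libraries (log2 −2.23 ± 0.34, adjusted p = 0.165). The groups did not overlap. It is one of the 10 regions that vary together, and so are all 7 that DESeq2 called, which are also its only calls in the table (log2 −2.07 to −2.28). Among those higher in bRG, the smallest p was that of chr2A:13369610-13370978, at the clone-named gene AC092675.1, with 1.06 and 1.08 CPM in bRG against 0.830, 0.499 and 0.490 CPM in aRG (log2 1.75 ± 0.47 with the series term, adjusted p = 0.987). The groups did not overlap, at levels close to 1 CPM.

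In bIP against aRG, which spans the step from stem cell to committed progenitor, 2305 regions were called, 1177 higher and 1128 lower. That is 44.2% of those tested, beside 44.9% of all regions (24.0% higher and 20.9% lower). With RLE size factors 1089 were higher and 1255 lower. By class, 808 of 1774 neither-position regions (45.5%), 488 of 1038 without a human position only (47.0%) and 1009 of 2400 without a chimpanzee position only (42.0%) were called. In bIP against bRG, 1920 were called, 1063 higher and 857 lower, 36.8% of those tested beside 36.5% of all regions (20.4% higher and 16.1% lower). The shares were 40.8% of neither-position regions, 38.3% without a human position only and 33.3% without a chimpanzee position only. These 2 comparisons share the bIP libraries.

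In N against bIP, the step from progenitor to neuron, 2717 were called, 1305 higher and 1412 lower, 52.1% of those tested beside 55.2% of all regions (28.8% higher and 26.4% lower). Neither-position regions leaned to lower calls, with 388 higher (21.9%) and 545 lower (30.7%) of 1774, and a median log2 difference of −0.18 beside −0.02 over all regions tested. The lean was also seen in regions with both positions that touch a peak: among touched regions, 22.0% of 1722 neither-position regions were higher and 31.1% lower, beside 25.96% and 34.2% of 114570 with both, with medians of −0.18 and −0.17. The regions without a human position only had 250 higher and 276 lower of 1038, with a median of −0.13. The regions without a chimpanzee position only had 667 higher and 591 lower of 2400, with a median of −0.02. In the top quartile by level, 46.5% of 1468 regions lacking a position were called, beside 55.5% of 48765 others, and in the lowest quartile 44.6% of 1108 beside 44.5% of 49125. Between the library series the N against bIP difference itself was called different in 411 of 5212 (7.89%), beside 8.33% of all regions.

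**Figure D4:**
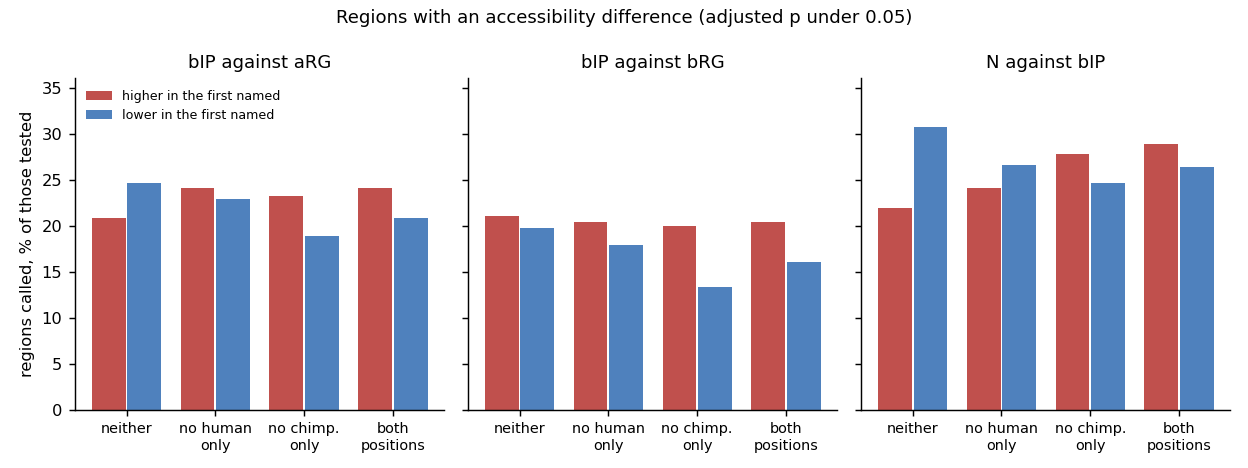
Share of tested regions called higher or lower (y axis, %) in 3 comparisons, for the 3 classes and for regions with both positions, higher and lower referring to the cell type named first. In N against bIP the lower bar of neither-position regions stands at 30.7% and the higher bar at 21.9%. For regions with both positions, touched and untouched by a peak pooled, the higher bar is the taller (28.9% against 26.4%). Among the touched ones alone, which are not drawn, 25.96% were higher and 34.2% lower.

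Both steps together sorted the regions into patterns. Of the 5212 tested, 424 (8.14%) were higher in bIP than in bRG and lower in N than in bIP, a peak in intermediate progenitors, and 357 (6.85%) fell at both steps. A further 320 (6.14%) rose at both, and 922 (17.7%) rose in N alone. The shares in regions with both positions were 8.38%, 6.72%, 5.96% and 21.6%.

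The largest runs differed in the cell type with the highest level. On chromosome 9, 18 neither-position regions between 196948 and 800139 lay in a gorilla interval of 807 kb that measured 364 kb in human. They summed to 169 ± 29.6 CPM in N, 248 ± 47.1 CPM in bIP, 103 ± 2.89 CPM in bRG and 100.4 ± 15.1 CPM in aRG (SD over libraries). Of them 10 rose and 2 fell in bIP against bRG, beside 20.4% and 16.1% of all regions, and 2 rose and 9 fell in N against bIP, beside 28.8% and 26.4%. These shares of all regions also stand beside the counts of the runs that follow, which were picked for their size. A second stretch on the same chromosome, 10 neither-position regions from 6661586 to 6882301, summed to 112 ± 18.6 CPM in N, 169 ± 36 CPM in bIP, 83.1 ± 2.34 CPM in bRG and 73.5 ± 10.5 CPM in aRG, with 5 regions lower and 0 higher in N against bIP.

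Other runs were highest in radial glia. On chromosome 11, 17 neither-position regions (71079457 to 71480981, 428 kb in gorilla and 165 kb in human) lay next to a region listed with FOLH1, a glutamate carboxypeptidase. Their sum was 58.7 ± 8.65 CPM in N, 65.0 ± 9.75 CPM in bIP, 103 ± 7.46 CPM in bRG and 124 ± 25.3 CPM in aRG, and 11 of the 17 were lower and 2 higher in bIP against bRG. On chromosome 13, 17 regions without a human position (91412446 to 91562423, 156 kb against 67.8 kb in human) summed to 31.0 ± 6.09 CPM in N, 68.1 ± 8.03 CPM in bIP, 93.1 ± 1.85 CPM in bRG and 107 ± 7.73 CPM in aRG, and 14 were lower in N than in bIP. A run of 16 neither-position regions on chromosome 14 (71193310 to 71281969) was highest in bIP, with 72.6 ± 17.6 CPM in N, 138 ± 21.7 CPM in bIP, 109 ± 5.53 CPM in bRG and 116 ± 1.40 CPM in aRG, and 14 of 16 were lower and 0 higher in N than in bIP.

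Regions open mainly in intermediate progenitors occurred in all 3 classes. The neither-position region chr3:121497904-121498959 lies 254 bp from a region listed with MUC13, a transmembrane mucin, in an interval of like length in human (10951 bp, against 11177 bp in gorilla). It had 16.1, 14.6, 9.23, 14.3 and 15.9 CPM in bIP, against 1.16 and 1.36 CPM in bRG and 0.514, 0.312 and 1.52 CPM in aRG, and N had 0.858, 0.747, 1.20 and 0.563 CPM. Every bIP library was above every library of the other cell types, and the bIP set was the sole peak set to touch it. The log2 difference was −4.10 ± 0.29 for N against bIP (adjusted p = 4.93e-11) and 3.73 ± 0.38 for bIP against bRG (adjusted p = 1.09e-07).

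The region chr6:24218936-24220167, without a human position but placed on chimpanzee chromosome 6, lies 4229 bp from a region listed with NRSN1, a vesicle protein of neurons. Its levels were 3.66, 2.79, 1.49 and 1.03 CPM in N and 32.7, 31.8, 27.8, 33.5 and 37.2 CPM in bIP (log2 −3.86 ± 0.28, adjusted p = 7.5e-11). The bRG libraries stood at 6.37 and 6.0 CPM and the aRG libraries at 3.20, 3.74 and 6.57 CPM, so that bIP stood apart from all 3 in level. The N, bIP, bRG and aRG peak sets all touched the region. The fall in N was larger in the second series than in the first, with a second minus first difference of −1.57 on the log2 scale (SE 0.34, edgeR interaction term, adjusted p = 0.00414). In the region chr18:60334812-60336748, also without a human position, bIP had 28.2, 28.6, 26.4, 38.9 and 35.3 CPM, against 5.00 and 4.87 CPM in bRG (log2 2.97 ± 0.30, adjusted p = 7.99e-08), and N stood in between at 16.6, 10.3, 15.7 and 14.9 CPM. The N, bIP and bRG peak sets touched it.

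Without a chimpanzee position, chr6:5086247-5087065 covers the microRNA gene MIR3691. It had 13.6, 14.1, 13.0, 13.4 and 15.5 CPM in bIP and 2.22 and 1.87 CPM in bRG (log2 2.73 ± 0.28, adjusted p = 1.13e-07), and 5.18, 7.68, 4.18 and 5.02 CPM in N. The N and bIP peak sets touched it. At BNIP3P19, a pseudogene of the mitophagy gene BNIP3 on chromosome 19, N had 1.44, 0.883, 0.576 and 0.516 CPM and bIP had 4.69, 5.31, 6.11, 7.78 and 10.4 CPM (log2 −2.95 ± 0.29, adjusted p = 5.77e-09). Here too the fall was larger in the second series, by a second minus first difference of −1.90 (log2, SE 0.46, adjusted p = 0.00829). The nearby region chr19:15705375-15706326 averaged 1.81 ± 0.227 CPM in N and 19.1 ± 2.69 CPM in bIP (log2 −3.39 ± 0.19, adjusted p = 9.82e-12), and with 13.8 ± 0.459 CPM in bRG and 16.2 ± 1.61 CPM in aRG it was low in N alone. Both lie in a run of 14 regions whose gorilla interval of 233 kb measures 33.9 kb in the chimpanzee. At chr6:165605781-165607368, listed with AL356123.1, N averaged 1.1 ± 0.336 CPM and bIP 23 ± 6.78 CPM (log2 −4.40 ± 0.27, adjusted p = 1.59e-11), with 12.2 ± 0.589 CPM in bRG and 6.49 ± 3.77 CPM in aRG.

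**Figure D5:**
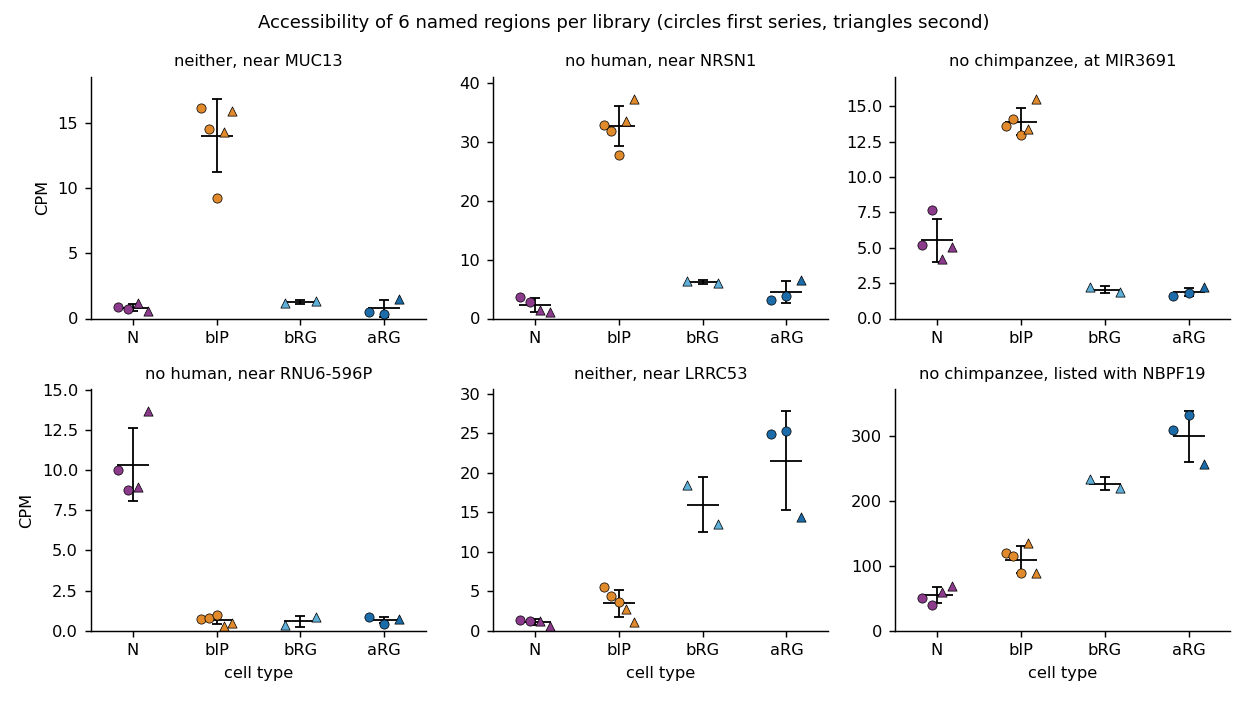
CPM (y axis) of 6 regions by cell type, with 1 point per library, circles for the first and triangles for the second library series, and bars for mean and SD. The regions near MUC13 and NRSN1 and at MIR3691 are highest in all bIP libraries, the region near RNU6-596P is highest in all N libraries, and those near LRRC53 and listed with NBPF19 are highest in aRG and bRG.

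Some regions were open mainly in neurons. The region chr8:57292710-57294143, without a human position and 2509 bp from a region listed with RNU6-596P, had 9.98, 8.76, 8.94 and 13.7 CPM in N, against 0.757, 0.777, 0.971, 0.309 and 0.483 CPM in bIP (log2 4.02 ± 0.28, adjusted p = 4.07e-11). The bRG and aRG libraries also lay under 1 CPM, and 3 counts in a library correspond to 0.114 to 0.208 CPM. Among neither-position regions, chr16:60903648-60904375 had 11.8, 12.2, 9.99 and 20.5 CPM in N and 1.32, 1.23, 1.32, 1.5 and 1.5 CPM in bIP (log2 3.26 ± 0.23, adjusted p = 5.95e-11). It sits in a gorilla interval of 13.6 kb that measures 8.20 kb in human. Without a chimpanzee position, chr6:974211-975825 averaged 14.6 ± 9.58 CPM in N and 0.555 ± 0.0724 CPM in bIP (log2 4.58 ± 0.31, adjusted p = 3.06e-11), where N replicate 4 with 28.8 CPM lay far above the other N libraries (8.22 to 11.4 CPM).

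Other regions were open in both bIP and N. The neither-position region chr3:131652594-131654168 had 14.5, 13.9, 18.3, 29.3 and 35.1 CPM in bIP, against 2.73 and 2.25 CPM in bRG (log2 3.62 ± 0.31, adjusted p = 3.48e-08), and 21.4, 19.3, 20.3 and 37.1 CPM in N (N against bIP, log2 0.13 ± 0.19, adjusted p = 0.571). Without a chimpanzee position, 2 regions listed with DHRS4, a short-chain dehydrogenase, differed in the cell type of their highest mean. The region 6036 bp away had 11.4 ± 2.54 CPM in bIP against 1.07 ± 0.149 CPM in bRG (log2 3.71 ± 0.30, adjusted p = 3.34e-08). With 9.50 ± 1.77 CPM, N was not called different from bIP there (log2 −0.30 ± 0.17, adjusted p = 0.146). The promoter region had 16.8 ± 4.16 CPM in N against 4.82 ± 0.983 CPM in bIP (log2 1.76 ± 0.17, adjusted p = 6.01e-09). They share a run of 8 regions in a gorilla interval of 50.9 kb that is 15.5 kb long in the chimpanzee. DHRS4 has near-identical neighbours (DHRS4L2 flanks the run), so reads may be shared between copies.

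Further regions were open mainly in radial glia. The neither-position region chr1:69479399-69480409, 1202 bp from a region listed with LRRC53, had 5.49, 4.47, 3.68, 2.70 and 1.06 CPM in bIP, against 18.4 and 13.5 CPM in bRG (log2 −2.84 ± 0.30, adjusted p = 1.38e-07), with 25, 25.3 and 14.4 CPM in aRG and 1.14 ± 0.355 CPM in N. The human interval there is 5237 bp, against 4989 bp in gorilla. The region chr18:17238137-17239117, without a human position, had 2.35 ± 0.922 CPM in bIP and 14 ± 1.65 CPM in bRG (log2 −2.85 ± 0.29, adjusted p = 1.08e-07). The region chr2A:107126100-107127633, without a chimpanzee position, had 2.72 ± 0.431 CPM in bIP and 15.5 ± 1.02 CPM in bRG (log2 −2.51 ± 0.25, adjusted p = 7.59e-08). A different course was seen in the neither-position region chr6:1962026-1962795, with 4.21, 4.14, 2.64 and 1.5 CPM in N, against 23.3, 22.2, 18.3, 19.1 and 20.4 CPM in bIP (log2 −2.74 ± 0.20, adjusted p = 8.57e-11), and 20.7 and 20.6 CPM in bRG.

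Gene names are listed in the table only where a human position exists, so promoters can be counted only for the 2470 regions without a chimpanzee position. Of these, 362 (14.7%) were listed within 1000 bp of a gene, beside 10.2% of regions with both positions. Of the 362, 122 belonged to genes that match a protein-coding symbol in the RefSeq gene table. Over all regions with a listed gene, this held for 10591 of 20663 promoter regions, a larger share. Called promoters numbered 94 of 355 (26.5%) in bIP against aRG, 61 (17.2%) in bIP against bRG and 123 (34.6%) in N against bIP, beside 29.9%, 21.0% and 37.2% of all promoter regions. Of the other, distal regions without a chimpanzee position, 915 of 2045 were called in bIP against aRG (44.7%), 738 in bIP against bRG (36.1%) and 1135 in N against bIP (55.5%), beside 46.6%, 38.3% and 57.3% of all distal regions.

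A list was drawn up for gene families known for copy-number changes among apes, such as NBPF, NPIP, TBC1D3, SRGAP2, RGPD and LRRC37. It also took in SMNDC1 and FRGCA, which are outside these families. Genes of this list were listed with 28 of the 2470 (1.13%), beside 271 of all regions with a gene (0.135%). Of the regions of this list, 10.3% had no chimpanzee position. In bIP against aRG 3 of the 28 were higher and 8 lower, beside 24.0% and 20.9% of all regions. Olfactory receptor genes were listed with 14 regions, 3.86% of their 363 in the table. ZNF genes, which encode zinc finger repressors and other DNA-binding proteins, were listed with 13, 1.81% of their 720. Genes of radial glia, of intermediate progenitors, of pluripotent cells, of mesenchyme and of choroid plexus and hem were listed with 0 of the 2470. The table holds 194, 146, 15, 52 and 44 regions of these lists, and the 2470 are 1.23% of all 201402 regions with a gene. The cortical neuron list had 2 of 321, listed with MEF2C, a transcription factor of neurons, and RBFOX3, a neuronal splicing factor.

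The most counted region without a chimpanzee position, chr1:117608320-117610021, is listed 29104 bp from NBPF19, a gene of the neuroblastoma breakpoint family. Its 1 human position (chromosome 1, 149445520 to 149446233) is 714 bp wide. It had 50.4, 39.8, 59.2 and 68.7 CPM in N, 119.7, 115, 89.2, 136 and 89.6 CPM in bIP, 234 and 219 CPM in bRG, and 309.5, 332 and 257 CPM in aRG. The 4 cell types did not overlap. The log2 difference was −1.03 ± 0.18 for N against bIP (adjusted p = 2.24e-05), −0.97 ± 0.23 for bIP against bRG (adjusted p = 0.0014) and −0.49 ± 0.26 for bRG against aRG (adjusted p = 0.987). Such repeats have near-identical copies, so the reads of several may be counted here. The second, chr2B:18272699-18275121, lies 6117 bp from CDC27P1, a pseudogene of a mitotic ubiquitin ligase subunit, and averaged 49.4 ± 5.33 CPM in N, 140 ± 30.1 CPM in bIP, 255 ± 17.1 CPM in bRG and 186 ± 50.6 CPM in aRG (N against bIP, log2 −1.5 ± 0.18, adjusted p = 8.63e-08).

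The region at NOTCH2NLA, chr1:115609632-115611388, is the sole one without a chimpanzee position among the 11 promoter regions of the listed cortex genes of the human lineage. In human, NOTCH2NL genes act on Notch signalling and keep cortical progenitors in division. Since NOTCH2 and its paralogs are nearly identical, the gorilla region may be any of them. It had 26.9, 31.6, 19.2 and 29.0 CPM in N, 35.0, 32.0, 26.9, 36.4 and 43.1 CPM in bIP, 48.6 and 43.2 CPM in bRG, and 45.5, 47.2 and 50.6 CPM in aRG. It was lower in bIP than in aRG (log2 −0.47 ± 0.18, adjusted p = 0.0331). The difference was −0.36 ± 0.22 between bIP and bRG (adjusted p = 0.215) and −0.38 ± 0.17 between N and bIP (adjusted p = 0.0529). The last of these was past 0.05 with DESeq2 (adjusted p = 0.0438), with no filter (adjusted p = 0.0456), in the second series alone (adjusted p = 0.0311), without bIP replicate 3 (adjusted p = 0.0174) and without N replicate 2 (adjusted p = 0.0147). In the 11 other alternatives it was not called (adjusted p from 0.0515 to 0.174).

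For some genes every listed region lacked a chimpanzee position. All 9 regions listed with SORT1, the sorting receptor sortilin, were such regions, in a gorilla interval of 82.7 kb that measures 45.7 kb in the chimpanzee. Its promoter, chr1:104367475-104369326, had 101, 134, 82.1 and 116 CPM in N, 120.0, 124, 101, 131 and 145 CPM in bIP, 123 and 109 CPM in bRG, and 129, 139 and 126 CPM in aRG. These groups overlapped, and none of the differences was called (N against bIP, log2 −0.20 ± 0.16, adjusted p = 0.31). All 8 regions listed with MAGI2, a synaptic scaffold protein, lay in a gorilla interval of 85.3 kb whose flanks are 12282 kb apart in the chimpanzee, and summed to 20.9 ± 4.37 CPM in N and 11.5 ± 1.1 CPM in bIP. All 6 regions of ALKBH5, an RNA demethylase, and all 5 of LLGL1, a cell polarity gene, belong to the run on chromosome 5.

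For the genes below, the sums were not tested and the counts are of regions called, to be read beside 20.4% higher and 16.1% lower of all regions in bIP against bRG, and 28.8% and 26.4% in N against bIP. The 9 of 11 regions of SLC24A4, a sodium, potassium and calcium exchanger, summed to 64.6 ± 15.4 CPM in N, 37.9 ± 8.70 CPM in bIP, 16.2 ± 0.0796 CPM in bRG and 18.1 ± 3.66 CPM in aRG, with 6 of 9 higher in bIP than in bRG. The 5 of 6 regions of FOXE1, a forkhead factor, summed to 8.83 ± 1.59 CPM in N and 61.5 ± 11.2 CPM in bIP, with 4 of 5 lower in N. The 7 of 8 regions of PSMB1, a proteasome subunit, summed to 25.6 ± 4.73 CPM in N, 38.8 ± 4.14 CPM in bIP, 19.6 ± 0.770 CPM in bRG and 22.2 ± 2.07 CPM in aRG, with 4 higher in bIP than in bRG and 3 lower in N than in bIP. The 5 regions of SLC6A12, a betaine and GABA transporter, summed to 8.46 ± 4.62 CPM in N and 28.0 ± 5.52 CPM in bIP, with 4 of 5 lower in N. For KIF1A, a kinesin of axonal transport, 7 of 10 regions summed to 86.8 ± 15.2 CPM in N and 119 ± 32.1 CPM in bIP, with 4 lower in N than in bIP. For SUN1, a protein of the nuclear envelope, 9 of 12 regions summed to 70.7 ± 14.2 CPM in N and 58.2 ± 12.0 CPM in bIP, with 4 higher and 1 lower.

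The 2 most counted regions without a human position only, chrX:54569656-54572393 and chrX:54575141-54577096, lie on chromosome X, and the third, chr12:104555352-104558345, lies 2207 bp from a region listed with ISCU, the scaffold on which iron-sulphur clusters are built. They averaged 72.9 ± 16.4, 59.1 ± 13.0 and 54.8 ± 8.88 CPM in N, 72.4 ± 8.81, 64.5 ± 9.57 and 60.9 ± 6.72 CPM in bIP, 79.7 ± 6.42, 71.0 ± 6.23 and 56.5 ± 3.80 CPM in bRG, and 87.1 ± 6.17, 81.6 ± 7.15 and 69.4 ± 4.34 CPM in aRG. No difference between cell types was called in any of the 3. With a minimum of 10 CPM in 2 libraries, which moved the N against bIP difference of all 44039 regions kept by a median of 0.29 (log2), N was called higher than bIP at chrX:54569656-54572393 (log2 0.30, adjusted p = 0.00201) and at chr12:104555352-104558345 (log2 0.13, adjusted p = 0.0264). Over the regions on X that lack a position, 49 of 125 tested (39.2%) were called in bIP against aRG, 19 higher and 30 lower. Of all regions 44.9% were called there, 24.0% higher and 20.9% lower. In bIP against bRG 46 (36.8%) were called, 18 higher and 28 lower, beside 36.5% of all regions (20.4% and 16.1%). In N against bIP the lean was the other way, with 59 (47.2%) called, 35 higher and 24 lower, beside 55.2% (28.8% and 26.4%).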

How the data were processed

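The authors deposited 1 table of raw read counts per region for 14 libraries, with positions in gorGor6, hg38 and panTro6, and 1 consensus peak set per cell type. Per the file headers and layout, the peak sets give the authors' score, fold enrichment and −log10 p and q per peak. Of these only positions and the −log10 q deposited by the authors were used. The submitters' processing notes name bcl2fastq 2.20.0 and MACS2; for the aligner, the counter and the way positions were carried between genomes, no name was given in the sources used here. Of 218080 rows, 13823 had no gorilla position and 8 repeated one, leaving 204249. Starts are printed counted from 1.

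Counts were tested with edgeR 4.0.16 (R 4.3.3, TMM, filterByExpr, quasi-likelihood, cell type plus library series, 9 residual degrees of freedom) on 200931 regions with Benjamini-Hochberg adjustment. Shares and offsets were tested with two-sided exact permutation tests over libraries (scipy 1.17.1). Peak overlaps used bedtools 2.31.1. Libraries held 12834983 to 26660427 counts, and 3 counts correspond to 0.114 to 0.208 CPM. The fit was tested on simulated data. Alternatives were RLE size factors, DESeq2 1.42.0, other filters, no series term, a replicate block, the second series alone and leaving out each library.

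Named regions were, per class, the 2 promoter and 2 distal regions of smallest p in each direction for bIP against bRG and N against bIP, and the 3 of highest level. Over the 3 classes together, the 2 of smallest p in each direction for bRG against aRG and promoters of listed genes were added, 46 in all. The promoter places stayed empty for regions without a human position, since 0 of them list a gene. The regions and gene lists were chosen with earlier results of these data known. No sequence was printed, since no gorGor6 genome was used here.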

Additional observations from a re-analysis of the deposited data

Results flagged for a closer look

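Library shares were flagged because 1 library stood far from the others of its cell type. In bIP replicate 3, all regions lacking a position held 3.91% of the counts, against 3.15% to 3.34% in the other bIP libraries, and neither-position regions held 2.13%, against 1.40% to 1.54%. In N replicate 4, regions without a human position only held 0.412%, against 0.431% to 0.433% in the other N libraries.

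The same bIP library was the highest in each of the 10 regions that vary together, and stood far above the others of its group in the 5 of them that are named regions, with 4768 CPM at chr3:78734681-78737112 (others 1424 to 1991), 2258 CPM at chr3:78740748-78742692 (others 644 to 894), 1049 CPM at chr9:74881480-74883297 (others 298 to 423), 57.9 CPM at chr9:74885103-74885341 (others 19.9 to 28.5) and 475 CPM at chr9:27205440-27206432 (others 145 to 197). It was the lowest at chr3:121497904-121498959 near MUC13, with 9.23 CPM against 14.3 to 16.1 CPM.

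N replicate 4 stood above the other N libraries at chr3:131652594-131654168 (37.1 CPM, others 19.3 to 21.4), chr6:95039576-95040231 (18.4, others 9.38 to 10.2), chr14:21268123-21269303 (22.99, others 14.2 to 15.3) and chr6:974211-975825 (28.8, others 8.22 to 11.4). It stood below them at chr1:69479399-69480409 (0.610 CPM, others 1.29 to 1.36) and chr2B:18272699-18275121 (41.5, others 51.6 to 52.8). N replicate 3 was highest at chr11:80866046-80866951 (3.22 CPM, others 2.38 to 2.44), and bIP replicate 5 at chr5:8648396-8649877 (21.3 CPM, others 14.3 to 14.8). Chance flags about 1 in 20 groups, and 100 groups were examined.

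In 3 named regions the N against bIP difference itself differed between the library series. The second minus the first series was −1.57 at chr6:24218936-24220167, −1.36 at chr21:20555050-20556573 and −1.90 at chr19:15717194-15717932 on the log2 scale (edgeR interaction term, adjusted p 0.00414, 0.00428 and 0.00829).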

How the results depend on the processing

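Of 46 named results, 29 kept direction and call in every alternative run. DESeq2 called 7 regions in bRG against aRG, its only calls over all regions, where edgeR called 0. A minimum of 10 CPM in 2 libraries left 1230 of the regions and called 794 in bIP against aRG, 660 in bIP against bRG and 776 in N against bIP. These were 64.6%, 53.7% and 63.1% of those tested, beside 70.1%, 59.0% and 68.1% of all regions kept. The second series alone, with fewer samples, called 1267 in bIP against aRG, 24.3% beside 24.6% of all regions. With a replicate block 138 were called in bIP against bRG, 1771 in bIP against aRG and 2501 in N against bIP. These were 2.65%, 34.0% and 48.0%, beside 2.94%, 34.5% and 50.5% of all regions. The library numbers do not pair the samples: correlations of the 16 same-numbered pairs ran from −0.232 to 0.272, 7 over 0.1, and 3 of 13 libraries correlated best with their own number. Leaving out 1 library gave 1949 to 2329 calls in bIP against aRG, 1329 to 1920 in bIP against bRG and 2468 to 2880 in N against bIP. At these ends the shares were 37.5% and 44.7% in bIP against aRG, beside 37.9% and 44.2% of all regions. They were 25.3% and 36.9% beside 24.6% and 36.4% in bIP against bRG. For N against bIP they were 47.5% and 55.5% beside 50.5% and 57.9%. Without X, chosen after seeing the data, 2256, 1874 and 2658 were called, and among regions that touch a peak, also chosen afterwards, 1912, 1634 and 2151. Off X this was 44.3%, 36.8% and 52.3%, beside 44.9%, 36.5% and 55.2% of all regions. Among touched regions the 3 classes had 46.3% to 54.4%, 41.1% to 45.8% and 53.1% to 58.4% called. Touched regions with both positions had 55.9%, 47.3% and 60.2%. The level of neither-position regions per kb was 1.74 times that of regions with both positions (median over libraries) and 1.09 times among regions that touch a peak, and that of regions without a human position only 1.03 and 0.911 times.

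Peak overlap of at least 50% of a region touched 42.7% (N), 41.2% (bIP), 41.6% (bRG) and 43.5% (aRG) of the regions, and peaks at or above the median −log10 q touched 34.8%, 34.1%, 33.9% and 34.2%, against 45.8%, 42.9%, 44.6% and 46.2% as reported.

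Share differences (percentage points) changed sign in places, and none passed a test. In distal regions only, bIP against aRG was −0.109 over all regions lacking a position and −0.0475 in neither-position regions. Regions without a human position only then gave −0.0207 (bRG against aRG), −0.0255 (bIP against aRG), −0.00481 (bIP against bRG) and −0.00587 (N against bIP). In the second series alone, bIP against aRG was −0.0872 over all, −0.0485 in neither-position regions and −0.00160 without a human position only, where bIP against bRG was −0.00862. N against bIP was −0.0336 without a chimpanzee position only. Without the 10 regions that vary together, chosen after seeing the data, bIP against aRG was −0.0868 and bIP against bRG −0.0387 over all, −0.0530 and −0.0328 in neither-position regions, and bRG against aRG −0.000225 without a human position only. Leaving out 1 library, the ranges that crossed 0 were −0.121 to 0.0672 (all, bIP against aRG), −0.239 to 0.00620 (all, N against bIP), −0.0834 to 0.0985 (neither, bIP against aRG), −0.0251 to 0.0191 (no chimpanzee position, N against bIP), and without a human position only −0.000114 to 0.00742 (bIP against aRG), −0.00106 to 0.00647 (bIP against bRG) and −0.00227 to 0.00415 (bRG against aRG).

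Offsets changed sign in distal regions only (0.00097, no chimpanzee position, N against bIP) and in the second series alone (0.0185, neither, bIP against bRG; 0.0216, no human position, bRG against aRG). Leaving out 1 library gave −0.0123 to 0.00997 (neither, bIP against bRG), −0.0424 to 0.0120 (no chimpanzee position, N against bIP) and −0.00933 to 0.0225 (the same, bIP against aRG).

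Among named regions, N against bIP changed sign only where the difference as reported was not called. With the block it was 0.089 at chr3:78734681-78737112, 0.082 at chr3:78740748-78742692 and 0.18 at chr9:74881480-74883297, whose values without 1 library ran from −0.43 to 0.0081. At chrX:54569656-54572393 it was −0.023 with RLE size factors, −0.017 with no filter, −0.023 with DESeq2, −0.033 with the block, −0.12 in the second series alone and −0.073 to 0.10 without 1 library. The 10 CPM minimum moved this difference by a median of 0.29 over all regions kept (−0.20 in bIP against bRG, 0.18 in bRG against aRG). It was then 0.30 at that region and 0.13 at chr12:104555352-104558345, both called, and 0.17 at chrX:54575141-54577096 and 0.083 at chr1:104367475-104369326, not called. The replicate block ended the call of 7 named regions lower in bIP than in bRG, with the same direction, among them chr1:69479399-69480409 (log2 −1.66, adjusted p = 0.112) and chr18:17238137-17239117 (log2 −1.91, adjusted p = 0.0977). The cause of these changes was not tested.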
